A study of Mus musculus with 49 samples.

Results

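In a pool of mouse embryonic stem cells that carried barcoded reporters all over the genome, 175 integrated reporters (IRs) were mutated by Cas9 with sgRNA3 and hardly mutated by Cas9 with sgRNA2. They were chosen by measured values: each had at least 30 reads with both guides, a mutation frequency under 10% with sgRNA2 and a mutation frequency of 25% or more with sgRNA3. The mutation frequency is the percentage of an IR's reads that are not wild-type. These 175 members are 12.4% of the 1407 IRs with 30 or more reads with both guides, out of 2962 IRs listed with both. Of the other IRs, 886 were at 10% or more with sgRNA2 and 25% or more with sgRNA3 (mutated by both guides), 340 were under both limits (low with both guides) and 6 were at 10% or more with sgRNA2 and under 25% with sgRNA3. Since the frequencies with sgRNA2 and sgRNA3 selected the members, these frequencies are given as a description, with no test.

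The cells were EBRTcH3 mouse embryonic stem cells that express the tetracycline transactivator (EStTA). Their pool was grown from a limited number of founder cells, each with many piggyBac-inserted EGFP reporters driven by 1 of 7 promoters (CMV, cMyc, Hoxb1, Nanog, Oct4, p53 or PGK). In every assay SpCas9 and a guide were delivered by plasmid and mCherry-positive cells were sorted, with sgRNA2 alone (12 libraries), with sgRNA3 alone (12 libraries), with sgRNA2 and a single-stranded DNA template, the ssODN (12 libraries), and in 4 additional experiments with sgRNA2 and ssODN that have 1 sample each. Additional experiments 3 and 4 are labelled with 1 µM and 8 µM ssODN, and before Cas9 the barcodes of all IRs were counted in 2 replicates of genomic DNA and of cDNA.

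Cas9 cuts both DNA strands at a site that its guide RNA matches beside a short PAM motif. The cell rejoins the ends, and inaccurate end joining leaves deletions or insertions, while a template such as an ssODN can be copied into the break as a knock-in. Since every IR carries the same target sequence, differences between IRs in a barcoded pool can be read against their place in the genome, their promoter and their expression.

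Both guides cut the same EGFP reporter, and their sequences are shown because the members are defined by the difference between them. Capitals mark the PAM.
sgRNA2: cgccgggatcactctcggcaTGG
sgRNA3: agtgtcacctaaatcgtatgCGG
G or C makes up 14 of the 20 bases of sgRNA2 and 8 of the 20 bases of sgRNA3. The guides lie on opposite strands, with 39 bases between their cut points.

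The insertion sites of 8 members are shown because the values below turn on them. They are given as 30 bases of the plus strand of mm9, with the TTAA motif that piggyBac uses in capitals. IR 43334, IR 6758 and IR 44330 are among those with most reads, IR 16515 with the largest difference between guides has no TTAA at its mapped position and is not shown, IR 21552 has the next largest difference, IR 24618 and IR 4336 have the highest and the lowest mean frequency with sgRNA2 and ssODN, and IR 44302 and IR 10111 are the most expressed.
IR 43334, chr13:96306322-96306351: caaggcctttgttTTAAgctaccaggcttt
IR 6758, chr2:101665449-101665478: gcttggtggctccTTAAtaagacagatgga
IR 44330, chr14:22737075-22737104: ttacttatcaaagTTAAagctccttccacc
IR 21552, chr6:98221675-98221704: tcttttagatacaTTAAcatctgtgcacca
IR 24618, chr7:97448702-97448731: tgcatttctacctTTAAtaaacttctgctg
IR 4336, chr1:192079475-192079504: ttttaattttttaTTAAggatgaggtttca
IR 44302, chr14:22302730-22302759: agaatgttacataTTAAaactcacccatgc
IR 10111, chr3:65778091-65778120: gcgtggctcggctTTAAacttaaaacctcg
The motif was present at 169 of the 175 members and at 1372 of the 1407 IRs.

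Depth was 2021831 reads with sgRNA2 and 769666 reads with sgRNA3. It was 2224925 reads with sgRNA2 and ssODN, and in additional experiments 1 to 4 it was 947244, 1439258, 2597271 and 2591465. Members were covered thinly in most tables: their median was 55 reads with sgRNA2 (30 to 2263) and 79 with sgRNA3 (30 to 270), and from 98 (additional experiment 2) to 264 (additional experiment 3) in the 5 tables with ssODN. Genomic DNA held 2648119 and 2704892 counts in its replicates and cDNA 1847222 and 1897359. The processed tables merge the libraries of an assay, so they have no replicates, SDs below are over IRs, and intervals (95%, Wilson) cover counting error only. The labels do not say whether copies of the same molecule were removed from the counts. IRs of the same founder cell share their cells and their abundance, so members are not replicates of each other.

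With sgRNA2 the members were close to unmutated, and with sgRNA3 they were mutated, though less than most of the pool. The mean mutation frequency of the 175 members was 4.41% ± 2.95 (SD) with sgRNA2, with a median of 3.75% and a range of 0 to 9.76%. With sgRNA3 it was 44.5% ± 13.7, with a median of 42.9% and a range of 25 to 86.7%. The IRs mutated by both guides had means of 46.4% and 82.3%, and the IRs low with both guides 1.50% and 8.30%. The members lay between the other groups with both guides, and part of this order follows from the limits that defined the groups. Their median stood at percentile 26.4 of the 1407 IRs with sgRNA2 and at percentile 32.6 with sgRNA3. Guides ranked IRs in nearly the same order over all 1407 IRs (Spearman's rho 0.94, Pearson's r 0.85), which share libraries, depth and founder cells, and the members are a stretch of a continuous band in the plot of both guides. The difference between guides within a member had a median of 38.9 points and ran from 18.1 to 77.4.

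**Figure D1:**
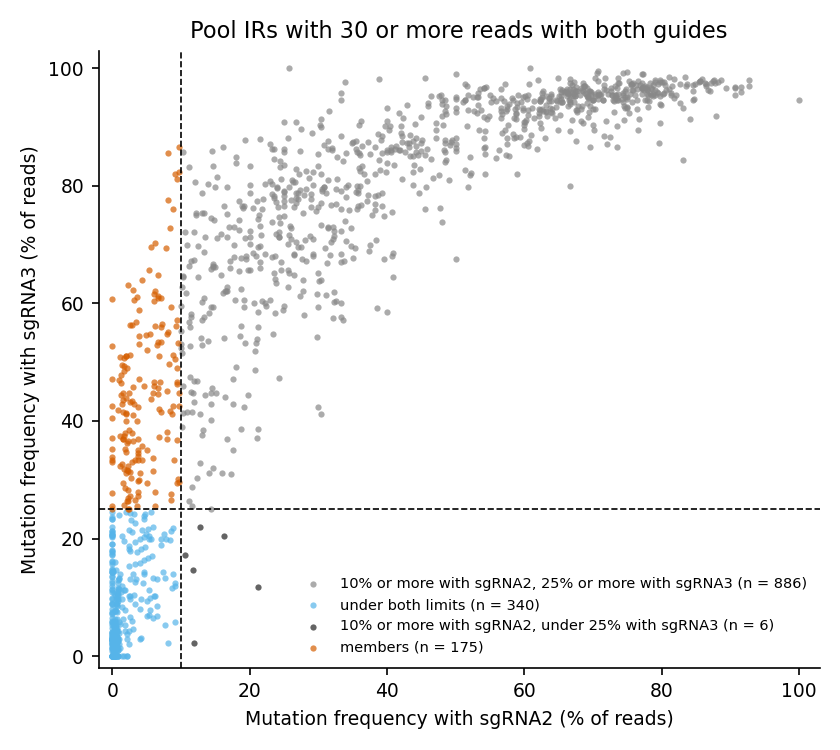
Mutation frequency with sgRNA2 (horizontal, % of reads) and with sgRNA3 (vertical, % of reads) of the 1407 pool IRs with 30 or more reads with both guides, 1 point per IR, with dashed lines at the limits of 10% and 25%. The 175 members fill the upper left field, between the 340 IRs under both limits and the 886 IRs at or above both.

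Few reads stood behind many of the low frequencies. No mutated read was seen with sgRNA2 at 13 members and a single one at 24, and 104 members were under 5%. The interval lay wholly under 10% with sgRNA2 at 59 members and wholly at 25% or more with sgRNA3 at 120, and 39 members met both. The guides were used in separate experiments, so a difference of guide and a difference of experiment cannot be told apart. In bulk DNA, fewer cells with a mutation and a mutation in fewer copies of an IR per cell cannot be told apart either.

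Values next to the limits show how close the nearest IRs on each side were. Just inside the sgRNA2 limit stood IR 44561, near the axonemal dynein gene Dnahc1, and IR 47265, in an intron of Ankrd33b, with 4 of 41 reads mutated each (9.76%). Just outside it stood IR 50704 with 14 of 140 reads and IR 25526 with 4 of 40, both at 10%, a value that other IRs not named here shared. Inside the sgRNA3 limit stood IR 23239 with 26 of 104 reads and IR 52000 with 18 of 72, both at 25%, and outside it IR 55581 with 15 of 61 (24.6%) and IR 56187, in an intron of the scaffold protein gene Ahnak, with 12 of 49 (24.5%). A single mutated read more or fewer would put each of these 8 IRs on the other side of its limit. With a minimum of 10 reads 334 IRs meet the rule, and with a minimum of 100 reads 27.

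In the cell line, a single clone with 36 PGK-driven IRs, no IR met the rule. There the frequency was 53.0% ± 6.78 (SD over 36 IRs, 31.8 to 64.1%) with sgRNA2 and 65.8% ± 5.35 (49.0 to 76.1%) with sgRNA3, at 1581 to 11481 reads per IR.

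The members with most reads with both guides were low with sgRNA2 at high depth, and 3 of the 6 named are given with their values in all 7 tables. IR 43334 (Hoxb1 promoter, chr13:96306337, intergenic, 11142 bp from the start of F2rl1, which encodes protease-activated receptor 2) was mutated in 46 of 2263 reads with sgRNA2 (2.03%, interval 1.53 to 2.70%) and in 75 of 171 with sgRNA3 (43.9%, 36.6 to 51.4%). With ssODN it had 2.48%, and 13.5%, 6.25%, 1.91% and 1.76% in additional experiments 1 to 4. Its sgRNA3 frequency was thus above all 6 of its frequencies with sgRNA2, of which additional experiment 1 gave the highest. IR 6758 (cMyc promoter, chr2:101665463, in an intron of Prr5l, whose product binds the mTORC2 kinase complex) had 1.79% of 2126 reads with sgRNA2 and 38.0% of 142 reads with sgRNA3. With ssODN it had 2.14%, and 23.0%, 5.55%, 2.60% and 1.40% in the additional experiments. IR 44330 (Hoxb1 promoter, chr14:22737089, intergenic, 68890 bp from Comtd1) had 1.05% of 1992 reads with sgRNA2, 32.4% of 213 reads with sgRNA3, and 3.27%, 14.9%, 11.4%, 4.56% and 2.27% in the 5 ssODN tables. IR 58361 (Oct4 promoter, chrX:96718880, near the ubiquitin ligase gene Pja1), IR 6381 (Hoxb1 promoter, chr2:78090182) and IR 28505 (CMV promoter, chr8:117518090, in an intron of the oxidoreductase gene Wwox) had 1.52%, 1.40% and 1.57% with sgRNA2 and 37.0%, 43.0% and 36.9% with sgRNA3. All 6 thus lay between 1.05% and 2.03% with sgRNA2 and between 32.4% and 43.9% with sgRNA3. In the 5 ssODN tables they ran from 1.11 to 3.27%, 10.4 to 23.0%, 3.39 to 11.4%, 1.04 to 4.56% and 1.40 to 3.02%, and in each of these tables the intervals of the lowest and the highest did not overlap. They sit on 5 chromosomes and carry 4 promoters, and all but IR 44330 belong to the same abundance group, G2, described below.

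The members with the largest difference between guides had higher frequencies in the ssODN tables than with sgRNA2 alone. IR 16515 (CMV promoter, chr5:33839088, 62463 bp from the homeobox gene Nkx1-1) had 4 of 49 reads mutated with sgRNA2 (8.16%, 3.22 to 19.2%) and 83 of 97 with sgRNA3 (85.6%, 77.2 to 91.2%). In the ssODN tables it had 55%, 47.4%, 55.8%, 49.0% and 18.3%, all of them above its sgRNA2 frequency. IR 21552 (Oct4 promoter, chr6:98221689) had 9.68% of 31 reads with sgRNA2, 86.7% of 90 reads with sgRNA3 and 12.8 to 34.9% with ssODN. IR 24127 (Nanog promoter, chr7:77738325) had 9.09% of 33 reads, 82.1% of 95 reads and 21.6 to 56.1%. All 3 had under 50 reads with sgRNA2, so their low sgRNA2 values carry wide intervals.

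The frequencies with sgRNA2 and ssODN come from libraries that did not choose the members, and show whether the IRs were also low there. In the table of sgRNA2 with ssODN the members had a mean of 11.8% ± 12.6 (n = 168) and a median of 7.57%, against 54.4% at IRs mutated by both guides and 1.92% at IRs low with both. Under 10% were 100 of 168 members (59.5%, interval 52.0 to 66.7%), against 32.7% of the 1359 IRs with 30 or more reads there. With each of the abundance groups described below counted once the share was 42.9%, so a majority under 10% depended on how members were counted, and 19 members (11.3%) reached 25% or more, against 57.6% of all IRs. The mean depended on this too: it was 5.02% with their reads pooled, 6.62% at a minimum of 100 reads and 18.5% with each abundance group counted once.

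The additional experiments placed members in the same order among the groups but at different levels. In additional experiment 1 their mean was 16.6% ± 8.51 (n = 173) and 31 of them (17.9%) were under 10%, against 23.8% of all IRs. In additional experiment 2 it was 15.5% ± 12.7 (n = 167) with 72 under 10% (43.1%), against 26.7% of all IRs. In experiment 1 the members' share under 10% was thus below that of all IRs, and in experiment 2 above it. In additional experiment 3, with 1 µM ssODN, the mean was 5.81% ± 9.06 (n = 174) with 154 under 10% (88.5%), against 42.8% of all IRs. In additional experiment 4, with 8 µM, it was 7.47% ± 8.09 (n = 172) with 132 under 10% (76.7%), against 37.1% of all IRs. In these experiments the members' means were within 4 points of their 4.41% with sgRNA2 alone. With reads pooled, the means of additional experiments 2, 3 and 4 were 10.2%, 3.42% and 4.08%, and with abundance groups counted once that of experiment 3 was 9.71%. The mean of the members was 0.218 of that of IRs mutated by both guides in the sgRNA2 with ssODN table, and 0.304, 0.249, 0.152 and 0.166 of it in additional experiments 1 to 4.

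**Figure D2:**
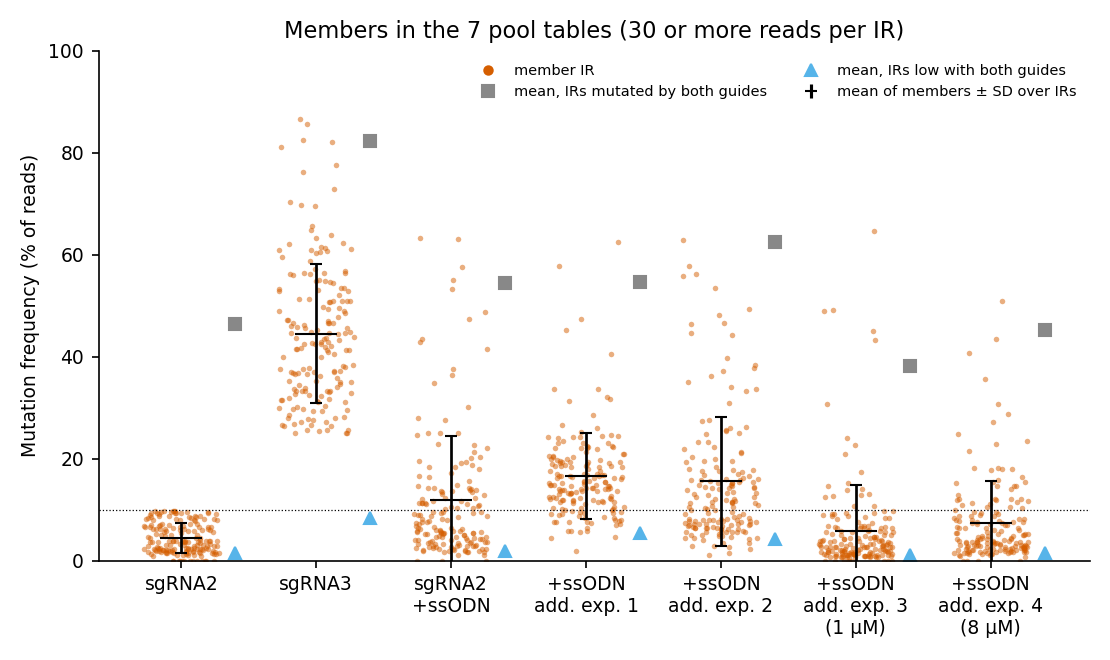
Mutation frequency (% of reads) of each member in the 7 pool tables, as points for IRs with 30 or more reads, with the members' mean and SD over IRs as bars and the means of IRs mutated by both guides (squares) and low with both (triangles). The members' mean lies between the means of those groups in every table. With sgRNA2 and with sgRNA3, part of this order follows from the limits that defined the groups. That all members are at 25% or more with sgRNA3 follows from the rule, and in no table with ssODN are they all at 25% or more.

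Over the whole pool, frequencies in the ssODN tables were below those with sgRNA3, and the members shared this. All members with 30 reads in an ssODN table were below their own sgRNA3 frequency there, against 96.5% of all IRs with sgRNA2 and ssODN and 92.3%, 93.7%, 97.4% and 96.9% in additional experiments 1 to 4. The interval lay below the sgRNA3 interval at 146 of 168 members with sgRNA2 and ssODN (76.4% of all IRs), and at 144 of 173 (73.3%), 137 of 167 (67.8%), 170 of 174 (86.5%) and 167 of 172 (85.1%) in additional experiments 1 to 4. As the members' sgRNA3 values were selected to be 25% or more, nothing about the members is read from these counts.

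Set beside the sgRNA2 frequency that chose them, the frequency with ssODN was higher at 143 of 168 members (74.2% of all IRs), by a mean of 7.44 points (5.95 over all IRs). In additional experiments 1 and 2 it was higher at 169 of 173 (85.2%) and 153 of 167 (89.3%), by means of 12.2 and 11.2 points (7.56 and 12.2 over all IRs). In additional experiment 3 it was higher at 87 and lower at 86 of 174 members, against 33.2% of all IRs higher, and in additional experiment 4 higher at 112 of 172 (50.8%). So in the first 3 tables most members and most IRs of the pool were higher than with sgRNA2. The ssODN interval lay above the sgRNA2 interval at 27, 78, 68, 15 and 16 members in the 5 tables, against 13.7%, 26.5%, 40.2%, 4.55% and 4.89% of all IRs. The members' sgRNA2 values were selected to be low, so these differences too are a description only.

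Few members were low in all tables with ssODN, and most were low in several. Of the 161 members with 30 or more reads in all 5, 16 (9.94%) were under 10% in all 5, against 20.7% of the 1317 IRs so covered. Under 10% in 4 of the 5 tables were 53 members, in 3 of them 32, in 2 of them 27, in 1 of them 20, and 13 were under 10% in no table. The corresponding numbers of all IRs were 98, 66, 47, 82 and 751, so the members take up much of the middle of the pool. Of the 161 members 129 (80.1%) were lower in both experiments 3 and 4 than in both experiments 1 and 2, against 77.6% of all IRs, so this order was that of the pool. Their highest value was in experiment 1 at 90 (55.9%), against 30.4% of all IRs. At 8 µM ssODN 107 members (66.5%) were higher than at 1 µM and 54 (33.5%) were lower, against 69.0% and 30.3% of all IRs. Each dose has 1 sample, so dose and experiment cannot be told apart.

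Frequencies with sgRNA3 and with ssODN went together across the pool, and less closely across the members alone. Over all IRs with 30 reads, the frequency with sgRNA3 and that with sgRNA2 and ssODN had r 0.90 and rho 0.95 (n = 1359), and in additional experiments 1 to 4 r was 0.91, 0.93, 0.81 and 0.86 and rho 0.96, 0.96, 0.92 and 0.95. Across members, whose sgRNA3 values the rule cut off at 25%, the first pair had r 0.65 and rho 0.48 (n = 168), and in additional experiments 1 to 4 r was 0.59, 0.64, 0.47 and 0.63 and rho 0.42, 0.45, 0.29 and 0.51 (n = 173, 167, 174 and 172). These points share founder cells and depth, and the relation is given as a description. The highest mean over the 5 ssODN tables was at IR 24618 (Nanog promoter, chr7:97448717, intergenic) with 48.0%, from 28.8% in experiment 4 to 64.6% in experiment 3. IR 605 (Hoxb1 promoter, chr1:34893233, in an intron of Fam168b) followed with 45.2% and IR 16515 with 45.1%. The lowest mean was at IR 4336 (CMV promoter, chr1:192079489, 84930 bp from the homeobox gene Prox1) with 2.75%, where the frequency was 3.70% of 81 reads with sgRNA2, 34% of 50 reads with sgRNA3 and 1.73 to 5.73% with ssODN. IR 43998 (Oct4 promoter, chr14:9418418) had 2.82% and IR 49645 (Oct4 promoter, chr16:16776960, in an intron of the sperm flagellum gene Spag6) 2.89%. These 3 had few sgRNA3 reads, 50, 34 and 31.

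Knock-in was rare at members. Reads with the knocked-in ssODN sequence had a mean of 0.0929% in the sgRNA2 with ssODN table, where 17 of 168 members had any (41.6% of all IRs), and 1.39%, 0.792%, 0.0639% and 0.0848% in additional experiments 1 to 4, where 117 of 173, 69 of 167, 12 of 174 and 21 of 172 members had any, against 78.4%, 65.9%, 33.8% and 40.1% of all IRs. The median over members was 0.845% in experiment 1 and 0 in the other 4 tables. With reads pooled, members' knock-in was 0.0477%, 1.29%, 0.701%, 0.0429% and 0.0518% in the 5 tables. The pooled values at IRs mutated by both guides were 3.88%, 12.4%, 9.48%, 2.44% and 3.05%. At IRs mutated by both guides the means were 2.74%, 9.73%, 6.69%, 1.80% and 2.35%. The members' knock-in was thus a smaller part of that group's value than their total mutation was, at 0.0339, 0.143, 0.118, 0.0355 and 0.0361 of it in the 5 tables. Of the mutated reads of members, knock-in made up 0.949%, 8.07%, 6.87%, 1.25% and 1.27%. At IRs mutated by both guides it made up 6.18%, 18.8%, 12.8%, 5.49% and 5.81%, and at IRs low with both 1.19%, 5.04%, 3.85%, 0.995% and 1.17%. This share was thus lower at the IRs low with both guides than at members in additional experiments 1 and 2. In additional experiments 3 and 4 it was slightly lower there, and with sgRNA2 and ssODN higher. Members had only 30, 30 and 24 knock-in reads in these tables, so no order is read from them. The 3 members with the highest counts of knock-in reads were IR 16515 (42, of which 26 in experiment 2 and 15 in experiment 1), IR 44330 (38) and IR 36766 (34, Oct4 promoter, chr11:61126519, in an intron of Slc47a2, which encodes a cation exporter). At these 3 almost all knock-in reads came from experiments 1 and 2, as they did over the members as a whole (496 and 310 reads, against 24, 30 and 30 in the other tables).

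With sgRNA3 the lesions of members were nearly balanced between insertions and deletions. Of 6728 lesion reads 2970 were insertions, 3597 deletions and 161 complex. Averaged over the 175 members, insertions made up 45.0% ± 16.1, deletions 52.8% and complex lesions 2.22%. The insertion share was 36.1% ± 10.2 at IRs mutated by both guides, 48.7% ± 33.5 at IRs low with both and 40.2% ± 19.7 over all 1378 IRs with a lesion read, so members lay between these groups in lesion balance as in frequency. The share comes from the same reads as the rule and is a description.

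With sgRNA2 the few lesions of members were mostly deletions. Their 1204 lesion reads gave a mean insertion share of 17.0% ± 24.9 over 162 members, with a median of 0, against 10.5% ± 10.4 at IRs mutated by both guides, 12.6% at IRs low with both and 11.8% over all IRs. With sgRNA2 the members' mean was thus not between those of the other groups. With reads pooled it was: the shares were 17.4% at members, 10.7% at IRs mutated by both guides and 19.8% at IRs low with both. This order thus depended on how IRs were summarised. In the 5 ssODN tables, leaving knock-in aside, the members' insertion share was 13.0%, 19.8%, 13.4%, 9.44% and 12.5%, against 10.8%, 17.8%, 12.0%, 10.5% and 9.85% at IRs mutated by both. The members' mean insertion share was thus under 20% in all 6 tables with sgRNA2 and 45.0% with sgRNA3. The mean insertion share was higher with sgRNA3 than with sgRNA2 alone at every group set beside the members, as the plot of lesion classes shows. At IRs low with both guides it was 25.9% in additional experiment 1 and 11.6 to 14.5% in the other ssODN tables.

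**Figure D3:**
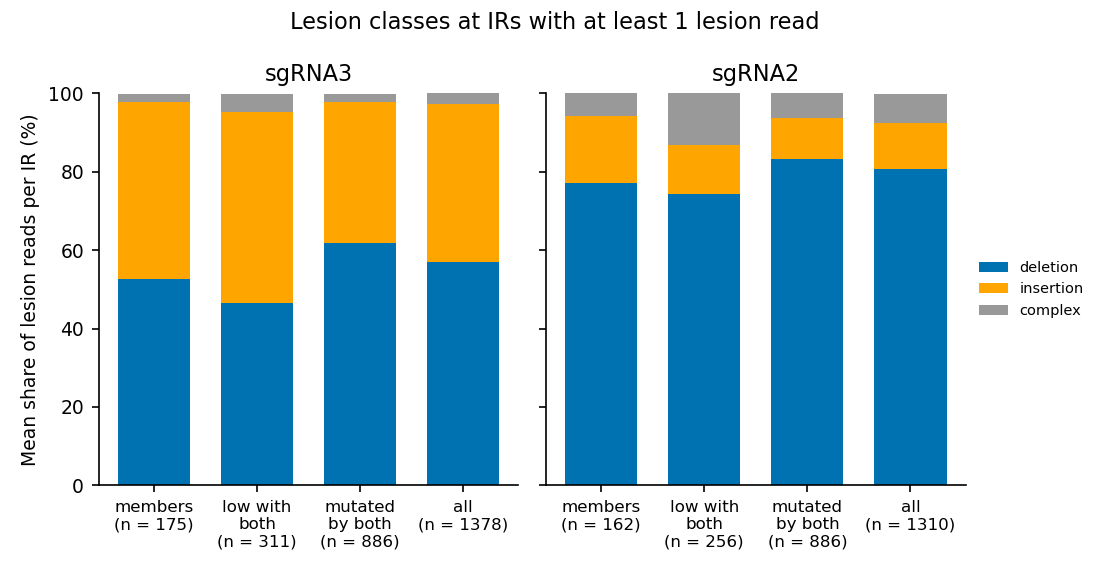
Mean share of deletions, insertions and complex lesions among lesion reads per IR (%), with sgRNA3 (left) and sgRNA2 (right), for members, IRs low with both guides, IRs mutated by both and all IRs, each with its number of IRs with a lesion read. Insertions take 45.0% at members with sgRNA3 and 17.0% with sgRNA2.

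All 7 promoters were found among the members. Hoxb1 drove 64 members (36.6%, against 36.7% of all 1407 IRs), Oct4 27 (15.4% against 12.7%), Nanog 23 (13.1% against 13.4%) and cMyc 22 (12.6% against 9.10%). CMV drove 20 (11.4% against 12.7%), p53 17 (9.71% against 13.1%) and PGK 2 (1.14% against 2.27%). The share of all IRs, which include the members, was within the members' interval for each promoter, so promoter shares did not differ from the pool beyond counting error. The share of IRs mutated by both guides was within it too. At IRs low with both guides, cMyc (5.59%) and Oct4 (9.71%) lay below the members' intervals (8.45 to 18.3% and 10.8 to 21.5%), and the other promoters within them. These intervals treat IRs as independent, which IRs of the same founder cell are not. Read the other way, members made up 17.2% of cMyc IRs, 15.2% of Oct4 IRs, 12.4% of Hoxb1 IRs, 12.2% of Nanog IRs, 11.2% of CMV IRs, 9.19% of p53 IRs and 6.25% of PGK IRs. Among the 27 members found at a minimum of 100 reads, Nanog and cMyc drove 7.41% each and PGK none (0%).

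**Figure D4:**
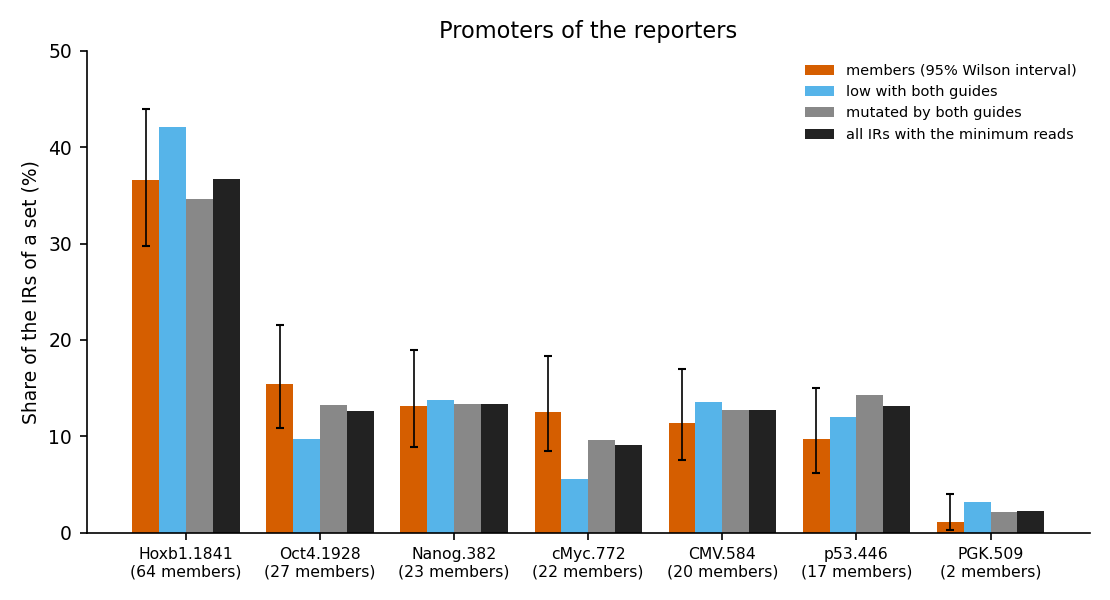
Share of each promoter (%) among members, with 95% Wilson intervals, and among IRs low with both guides, IRs mutated by both and all 1407 IRs. Hoxb1 leads in every group, at 36.6% of members, and each members' interval holds the share of all IRs.

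Among members, the promoter groups overlapped in mutation frequency. Mean frequencies with sgRNA3 ran from 41.1% ± 15.8 (p53) to 46.9% ± 13.6 (Hoxb1) for the 6 promoters with more than 2 members, less than 1 SD apart. With sgRNA2 and ssODN the means were 16.6% ± 18.1 for CMV (n = 18) and 15.1% ± 14.0 for Nanog (n = 23), against 8.03% ± 5.10 for cMyc (n = 21) and 8.95% ± 8.29 for Oct4 (n = 25). Those groups overlapped as well. The insertion share with sgRNA3 was 55.6% ± 17.3 at the 27 Oct4 members and 37.8% ± 20.3 at the 17 p53 members, with the 4 promoters Hoxb1, Nanog, cMyc and CMV between 40.5% and 44.6%.

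Expression before Cas9 covered nearly the whole range of the pool at members. Expression is the log2 ratio of cDNA to genomic DNA counts of a barcode, scaled to equal totals. The members' median was -3.40 (-3.42 and -3.37 in the replicates), with a range of -11.20 to 4.37. The medians of IRs low with both guides, mutated by both and of all IRs were -3.64, -3.38 and -3.53. No cDNA was seen at 16 members (9.14%, against 10.4% of all IRs), and 42 were above 0 (24%, against 20.3%). In expression, members were thus much like the pool they came from.

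The 2 most and the 2 least expressed members are given with their frequencies. As frequencies with sgRNA2 and sgRNA3 selected the members, no likeness is read from these values. IR 44302 (Hoxb1 promoter, chr14:22302745, 16331 bp from the histone acetyltransferase gene Myst4) had the highest log2 expression, 4.37, from 7420 and 8255 cDNA counts, and was mutated at 1.59% with sgRNA2 and 43.6% with sgRNA3. IR 10111 (PGK promoter, chr3:65778106, 15935 bp from the cyclin gene Ccnl1) came next with 4.00 and was mutated in 0 of 31 reads with sgRNA2, with an interval of 0 to 11.0%, and in 42.5% of 40 reads with sgRNA3. The lowest were IR 4336 at -11.20 and IR 51135 (Nanog promoter, chr16:82479910) at -11.19, both with 0 cDNA counts, mutated at 34% and 50.9% with sgRNA3. Across members, log2 expression and sgRNA3 frequency had r -0.08 and rho -0.09 (n = 175; over all IRs 0.01 and 0.03), and with the 5 ssODN tables r lay between -0.02 and 0.06 (n from 167 to 174). The 43 members with the lowest expression had a mean of 47.6% ± 13.9 with sgRNA3 and the 43 with the highest 44.6% ± 14.8, and with sgRNA2 and ssODN 13.4% ± 13.6 and 12.7% ± 15.4 (41 each). No ordering by expression beyond the spread over IRs was seen, and the points share libraries and founder cells.

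In gene content, distance to genes and GC content the surroundings of members were close to those of the pool. In genes lay 82 members (46.9%, interval 39.6 to 54.2%), 72 in introns and 10 in exons, against 48.3% of all IRs in genes. The nearest transcription start was a median of 18048 bp away, against 19345 bp for all IRs, and 9 members (5.14%, against 7.53%) were within 1000 bp of one. GC content around the site was 43.1% ± 4.78, against 43.0% ± 4.61. Members lay on all autosomes and X, with most on chromosome 11 (17, or 9.71%, interval 6.15 to 15.0%, against 5.90% of all IRs) and 14 (15, or 8.57%, against 6.47%). Chromosome 11 was the 1 of 20 chromosomes whose interval did not hold the share of all IRs, and IRs of a founder cell are not independent there either. GC content went with expression across members (r 0.52, rho 0.50, n = 175) as across all IRs (r and rho 0.43, n = 1406), and hardly with sgRNA3 frequency (r -0.07, rho -0.04). The 10 members in exons had a median log2 expression of -1.11, against -2.78 for introns and -4.52 between genes, with sgRNA3 means of 42.3%, 44.3% and 44.9%.

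Members held a smaller share of reads after Cas9 than of genomic DNA counts before it. They held 9.26% and 9.21% of genomic DNA counts in the replicates before Cas9, with median counts of 1205 and 1236, against 963 and 977 for all IRs. After Cas9 they held 2.74% of reads with sgRNA2, 1.98% with sgRNA3, 2.27% with sgRNA2 and ssODN, and 4.06%, 3.09%, 2.69% and 2.24% in additional experiments 1 to 4. Abundance groups G2 and G7, described below, hold 15 and 8 members and went the other way with sgRNA2. They went from 0.287% and 0.0610% of genomic DNA counts to 1.36% and 0.655% of sgRNA2 reads. Much of the members' 2.74% thus lay in these groups. With sgRNA3 they held 0.253% and 0.242% of reads. The IRs low with both guides went from 13.0% of genomic DNA counts to 90.6% of reads with sgRNA2 and 23.2% with sgRNA3. The 10 of them with most reads held 57.2% of sgRNA2 reads, and as shares sum to the whole, a larger share there lowers that of all others. The IRs mutated by both guides went from 40.3% to 4.52% and 64.0%. In additional experiment 1, also with sgRNA2, these groups held 26.6% and 58.6% of reads, near their sgRNA3 shares. So the share of the members together was smaller after Cas9 in all 7 tables. The shares of the IRs low with both guides and mutated by both differed between tables, also between experiments with the same guide. The counts before and after Cas9 come from different kinds of library, and the part of this in the shifts was not tested.

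Depth with sgRNA2 split the members into unlike sets. The 29 members with 500 to 2263 reads had low genomic DNA counts (medians of 415 and 404) and were tightly low with ssODN, at 2.98% ± 1.34 and with 29 of 29 under 10%. The 132 members with 30 to 99 reads had medians of 1404 and 1418.5 and a mean of 14.5% ± 13.4 with ssODN (n = 125), and 48% of them were under 10%. The 14 members with 100 to 499 reads had the highest genomic DNA counts (medians of 3119.5 and 3023), with 6.47% ± 6.85 and 78.6% under 10%. In additional experiment 1 the most and the least covered members had the same mean, 16.9%, and these 14 had 13.0%. The part of depth in these differences was not tested.

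Many members, like many IRs of the pool, had abundances close to those of other IRs, as IRs of the same founder cell would. How many IRs would be this close without a shared founder cell was not tested. IRs were grouped by read shares in the 4 additional experiments, at 100 or more reads in each. With differences up to 0.3 on the log2 scale, the 72 members that qualified fell in 41 groups, or in 23 with differences up to 0.5. All 752 IRs that qualified fell in 310 and 166 groups. A second grouping, chosen after seeing the data, used 8 measures (genomic DNA and the 7 tables, differences up to 1 on the log2 scale). It placed 161 members in 44 groups, of which 11 with 5 or more members held 102 (63.4%). Over the pool it placed 1316 IRs in 196 groups, so sharing a group was not particular to members. Of the 43 groups with members and at least 2 IRs, 6 held members only. In the other groups members stood beside 84 IRs low with both guides and 134 mutated by both. So values over members count some abundance groups many times, and whether a group is a founder cell was not tested.

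The groups had frequencies of their own. Group G2 held 15 IRs, all members, on 11 chromosomes with 6 promoters, with 5 of the 6 most-read members and the most expressed member, IR 44302, among them. It held 0.287% of genomic DNA counts, 1.36% of sgRNA2 reads and 0.253% of sgRNA3 reads. Its mutation frequency was 1.71% ± 0.402 with sgRNA2, 38.6% ± 4.92 with sgRNA3 and 2.06% ± 0.452 with sgRNA2 and ssODN, and 15.2%, 5.89%, 1.91% and 1.74% in additional experiments 1 to 4. With sgRNA3 the SD was 1.14 times the 4.33 points that counting alone gives at these depths, and in additional experiments 1, 2 and 3 it was 1.92, 1.88 and 1.76 times its counting value, with a range of 7.38 to 23.0% in experiment 1. With sgRNA2, with sgRNA2 and ssODN and in additional experiment 4 it was 1.32, 1.26 and 1.23 times that value. These ratios compare with independent reads, and the part of duplicate reads in them was not tested. Log2 expression within the group ran from -8.98 to 4.37.

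The members of groups G7 and G1 had more spread with sgRNA3 than those of G2. That they were under 10% with sgRNA2 follows from the rule. G7 held 8 IRs, all members, with IR 44330 and IR 36766 among them and the Hoxb1 promoter at 6 of them, with median genomic DNA counts of 206.5 and 208. It had 1.72% ± 0.474 with sgRNA2, 33.6% ± 8.04 with sgRNA3 (2.60 times the SD of counting) and 4.48% ± 0.828 with ssODN. G1 held 27 IRs, of which 19 were members and the other 8 were low with both guides. Its members held 2.34% of genomic DNA counts, the largest share that members held in any of the 17 groups with 3 or more members. They lay on 13 chromosomes and had median genomic DNA counts of 3125 and 3177. Its members had 2.72% ± 2.34 with sgRNA2, 37.8% ± 9.58 with sgRNA3 (1.53 times the SD of counting), 3.87% ± 1.52 with ssODN and expression from -11.20 to 2.55. Its other IRs had a mean of 18.6% with sgRNA3, so the 25% limit passed through that group. Of group G8, 7 of 15 IRs were members, at 58.5% ± 4.65 with sgRNA3, and the other 8 were mutated by both guides with a mean of 18.7% with sgRNA2, so there the 10% limit passed through the group.

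Over the 17 groups with 3 or more members (123 members), differences between groups held 40.3% of the sum of squares of sgRNA2 frequency, 53.5% of sgRNA3 frequency and 55.4% of the frequency with sgRNA2 and ssODN. In additional experiments 1 to 4 they held 45.0%, 46.9%, 42.3% and 62.2%, and of log2 expression 12.3%. Groups of this number and size that do not differ would hold 13.1% on average, if members were independent of each other. The share of log2 expression was no larger than that. Group means ran from 30.4% to 61.7% with sgRNA3. Abundance, which defined the groups, comes from the same tables as the frequencies. The frequencies with sgRNA2 and sgRNA3 also selected the members, so these shares are a description.

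**Figure D5:**
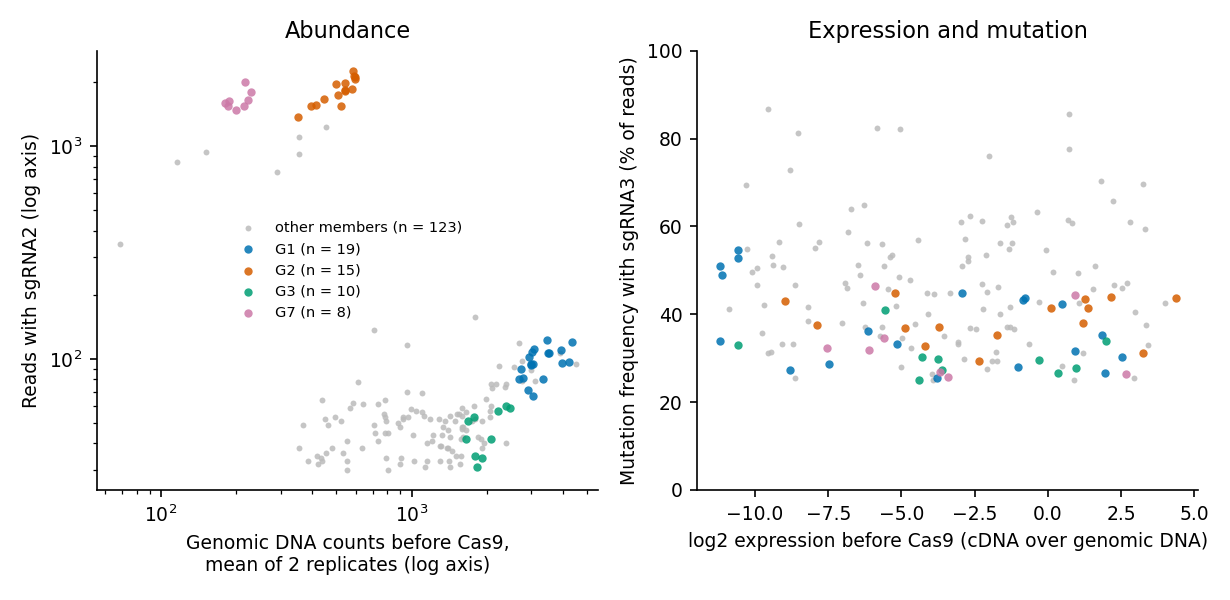
Left, reads with sgRNA2 against genomic DNA counts before Cas9 (mean of 2 replicates, both axes log) for each member; right, mutation frequency with sgRNA3 (% of reads) against log2 expression before Cas9, with the members of groups G1, G2, G3 and G7 in colour. Both measures on the left were among those that made the groups, so tightness there follows from the grouping. Expression is spread out within each coloured group, as in G2 from -8.98 to 4.37.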

How the data were processed

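The authors deposited, for each pool assay, a table of read counts per barcode and lesion class (wild-type, deletion, insertion, complex and, with ssODN, knock-in), without normalization and with libraries merged. These other columns per lesion class, as the authors deposited them, sum to the total. Barcode counts in cDNA and genomic DNA were deposited as raw counts. For the cell line the authors deposited reads with a lesion class and an alignment score. The submitters' processing notes name Bowtie2 2.0 and mm9.

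For each IR the entry with most reads was used, at a minimum of 30 reads per table. Expression used a pseudocount of 1 and at least 10 genomic DNA counts per replicate. Shares have 95% Wilson intervals. Genes came from the GENCODE annotation on NCBIM37 (mm9), and GC content from 1000 bp on either side. Abundance groups used complete linkage. There were no replicates of the mutation tables, so no test was run. The functions were tested on simulated data. Python 3.11.15, pandas 2.3.3, numpy 2.4.6, scipy 1.17.1, matplotlib 3.10.9 and pysam 0.24.0 were used.

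IRs named are, by rule, the 6 members with most reads with both guides, the 3 with the largest difference between guides, the 2 nearest on each side of each limit, the 3 with the highest and the 3 with the lowest mean with ssODN, the 3 with most knock-in reads, and the 2 most and the 2 least expressed. Of the IRs tied just outside the sgRNA2 limit, only 2 were named. The abundance groups named were chosen after their values were seen. The members and lists were chosen with earlier results of these data known.

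Alternatives covered the minimum reads, the entries per IR, complex and knock-in reads, both limits, medians and pooled reads, pseudocounts, each replicate left out, the annotation and the grouping. The cell line assay of sgRNA1 and the authors' derived expression values were not used here.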

Additional observations from a re-analysis of the deposited data

How the results depend on the processing

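No paired test was run, since the mutation tables have no replicates. Differences within an IR between tables are given as a description. Of 83 alternative values 34 moved by less than their interval, SD or 1.5 times, 49 moved more and 0 changed sign. Only median log2 expression takes values below 0, and for all other results the count of sign changes carries no information. Where no reason is given, the cause was not tested.

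The number of members was 334 at a minimum of 10 reads, which kept all 175 and added 159, and 27 at a minimum of 100 reads, by construction. It was 104 with an sgRNA2 limit of 5%, 55 with an sgRNA3 limit of 50% and 39 with intervals on their side of both limits. With all entries of an IR summed it was 176, of which 169 shared, and without complex reads 182, of which 171 shared.

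At a minimum of 100 reads, the share of members under 10% with sgRNA2 and ssODN was 80.9%, and the means with sgRNA2 and ssODN and in additional experiments 2, 3 and 4 were 6.62%, 12.5%, 4.32% and 5.31%. The shares of Hoxb1, Nanog, PGK and cMyc were 48.1%, 7.41%, 0% and 7.41%. In the 5 ssODN tables in order, medians over IRs were 7.57%, 15.3%, 11.6%, 3.03% and 4.49%, and pooled reads gave 5.02%, 16.0%, 10.2%, 3.42% and 4.08%. With the abundance groups on 8 measures counted once, an alternative chosen after seeing the data like that grouping itself, the means were 18.5%, 20.4%, 20.8%, 9.71% and 10.9%, the share under 10% was 42.9% and the insertion share with sgRNA3 was 46.3%. Knock-in medians were 0%, 0.845%, 0%, 0% and 0%, and pooled knock-in was 0.0477%, 0.701%, 0.0429% and 0.0518% outside additional experiment 1. With entries summed, members held 2.07% of sgRNA3 reads, 2.30% with sgRNA2 and ssODN, and 4.11%, 3.13%, 2.72% and 2.26% in additional experiments 1 to 4.

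Median log2 expression was -3.44 and -3.00 with pseudocounts of 0.5 and 10, and -3.42 to -3.37 with each replicate left out. The genomic DNA share was 9.21 to 9.26% with each replicate left out. With a distance limit of 0.5 members fell in 23 groups.

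Depth limits the low values: 132 of 175 members had under 100 reads with sgRNA2, where a single read is more than 1% of the total. Guide and experiment cannot be told apart, libraries are merged in the tables, and IRs of a founder cell are not independent.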

Other observations

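Among the members the depth of the most covered ones was not even between tables. The 15 IRs of group G2 had a median of 1832 reads with sgRNA2 and 125 with sgRNA3, and 289, 1184, 1386 and 1409 in additional experiments 1 to 4. The 8 IRs of group G7 had 1615 with sgRNA2, 238.5 with sgRNA3 and 367, 1128, 731.5 and 755.5. In both groups additional experiment 1, whose table held the fewest reads of the 6 with sgRNA2, was the one with the highest frequency among these 6, 15.2% and 18.8%.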
